A study of Rattus norvegicus with 6 samples.

Results

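Fatty acid oxidation, ketone body and PPAR genes form a group of 34 genes with roles in the entry of fatty acids into mitochondria, their degradation there or in peroxisomes, ketone body metabolism, the control of fuel use by kinases and PPARs, and other lipid handling. The group was set by gene symbol, and a feature of the table was taken as a member when its name was exactly that symbol. Of the 34 names, 31 had such a feature among the 27321 in the table. Cd36, Fabp3 and Plin2 had none of exactly that name.

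The study compared the RNA of kidney tissue from diabetic and control rats, with genes of protein glycosylation as its stated subject. RNA came from the IM tip, the innermost end of the renal inner medulla, and was sequenced after conversion to cDNA with a PCR-based kit. Both groups were male Sprague-Dawley rats of 3 months. The 3 control rats received citrate buffer vehicle through the tail vein, the 3 STZ rats received streptozotocin (STZ) at 62.5 mg/kg in that buffer by the same route, and tissue was taken 15 days later. STZ is a toxin of the pancreatic beta cell, so the model is one of insulin deficiency. Each library is labelled as control or STZ with a replicate number from 1 to 3, given here as control 1 or STZ rat 1. The p-values set the difference between the groups against the spread of these 6 libraries within their groups, adjusted by limma toward features of like level.

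The deposited values are normalized counts, which are reads per feature divided by a single factor per library. A read was worth between 0.763 and 1.11 normalized counts. The features of controls 1, 2 and 3 held 4657450, 5575171 and 3412311 reads, and those of STZ rats 1, 2 and 3 held 5014659, 4475648 and 3963074. A gene with 3 or fewer reads in all 6 libraries was taken as being at the floor, a limit that covers counting error only, because PCR copies are not independent molecules. Column names place the 3 control libraries on sequencing lane 3 and STZ rats 1, 2 and 3 on lanes 7, 6 and 8, so lane and group cannot be told apart. Levels are normalized counts, and means are given ± SD with n = 3 rats per group. Fold changes set STZ against control after log2(normalized count + 1), a scale on which low genes appear to differ less than they do. They are given with the standard error (SE) from limma, with p adjusted by the method of Benjamini and Hochberg over all 13486 features with a mean of at least 5, and a gene was called at an adjusted p under 0.05.

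Mitochondria take up long-chain fatty acids as carnitine esters and shorten them by β-oxidation, whose electrons pass to the respiratory chain and whose product, acetyl-CoA, enters the citric acid cycle or becomes ketone bodies. The PPARs are nuclear receptors that bind fatty acids and switch on many genes of this pathway, while the pyruvate dehydrogenase kinases restrain the use of glucose carbon. In the kidney the proximal tubule is known for its reliance on fatty acids, whereas the poorly oxygenated inner medulla is known for its reliance on glycolysis.

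Markers of the labelled tissue were present. Of 9 collecting duct principal cell markers, 8 had a feature and none of them was at 0, and Fxyd4, a sodium pump regulator, was the most abundant. Their summed level was 54606, 48002 and 32782 normalized counts in controls 1, 2 and 3 and 81721, 42678 and 62983 in STZ rats 1, 2 and 3. The thin limb markers summed to 36500 ± 6485 in controls and 32193 ± 3959 in STZ rats, with Cryab the most abundant of the 3 found on a list of 5. The groups overlapped in both sums.

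Of the 31 members, 28 passed the filter on low values, and 1 of these, Decr1, was higher in STZ rats at an adjusted p under 0.05 in limma, while 0 were lower. Over all 13486 features tested, 2.1% were called in either direction, 1.17% as higher and 0.927% as lower. An unadjusted p under 0.05 was found for 9 of the 28 members, against 14.7% of all features. All 3 STZ values lay above all 3 control values in 6 members and below them in 1, against 10.1% and 10.3% of all features, and the groups overlapped in the other 21. The median log2 fold change was 0.30 over the 28 members and 0.01 over all features, with 21 members positive and 7 negative. With equal library totals the signs of Slc25a20, Hadh and Oxct1 turned from positive to negative, and all 3 fold changes were near 0 in either case. Without STZ rat 1 the signs of these 3 genes and of Etfa and Etfdh also turned from positive to negative.

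The enzymes and the remaining members were also counted apart. Among 18 tested enzymes of import, β-oxidation, electron transfer and ketone metabolism, limma called 1, with 6 at an unadjusted p under 0.05. Over all features 2.1% were called and 14.7% had an unadjusted p under 0.05. A positive log2 fold change was found for 14 of the 18. Without STZ rat 1, those of Slc25a20, Hadh, Etfa, Etfdh and Oxct1 turned negative, between -0.13 and -0.0503. The median over the 18 enzymes was 0.21. That median was 0.11 without STZ rat 1, 0.14 without STZ rat 2, 0.38 without STZ rat 3, and 0.11 both at a minimum mean of 1 and with no filter. Among 10 tested kinases, regulators and lipid handling genes limma called 0, with 3 at an unadjusted p under 0.05, against the same 2.1% and 14.7%. Of these 10, 7 were positive, with a median of 0.30. It was 0.0894 when the features with the highest means alone were tested, which left low members out. Genes of the citric acid cycle were taken as a reference. Limma called 0 of the 16 tested there, with 2 at an unadjusted p under 0.05, again against 2.1% and 14.7% of all features. All STZ values lay below all control values in 5 and above them in 0, against 10.3% and 10.1% of all features. In these 16 genes 4 fold changes were positive, with a median of -0.20. This median was -0.12 without control 1, -0.32 without control 3 and -0.14 without STZ rat 3. The difference between these medians was not tested.

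**Figure D1:**
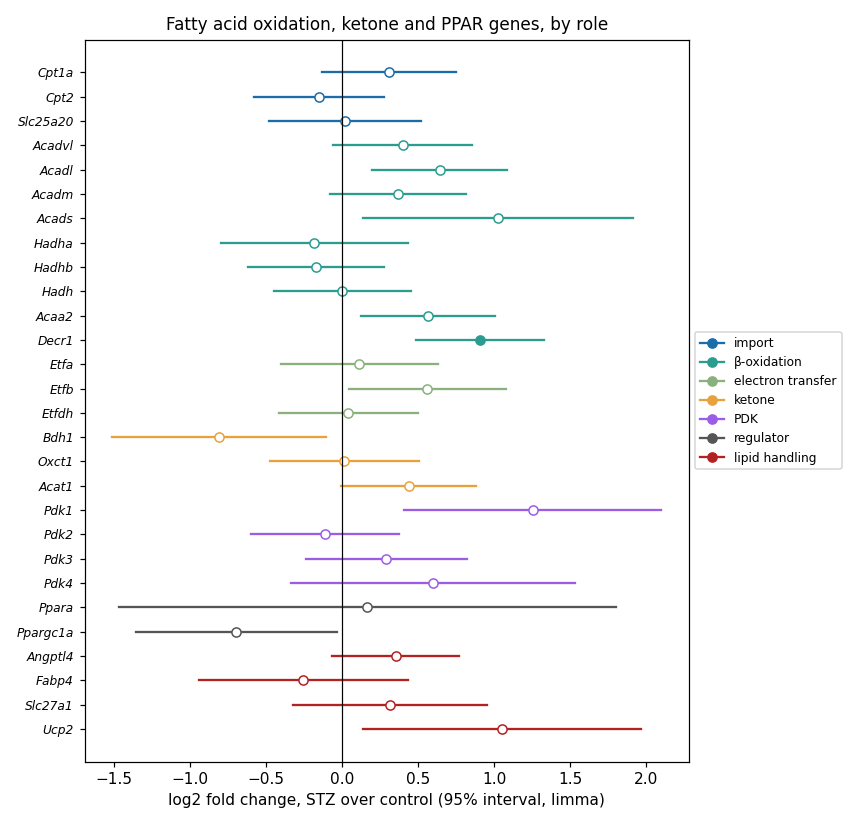
Log2 fold change of STZ over control (horizontal axis, log2(normalized count + 1) scale) for the 28 tested members, with points for limma estimates and lines for their 95% intervals, colored by role. The filled point marks Decr1, the member with an adjusted p under 0.05.

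Import into mitochondria is carried out by 3 members, and none was called by limma, nor did any have an unadjusted p under 0.05. Cpt1a, which makes the carnitine esters at the outer membrane and is the controlled step of the pathway, had 219 ± 31.7 normalized counts in controls and 272 ± 39.2 in STZ rats, with a log2 fold change of 0.31, a 95% interval from -0.13 to 0.75, and a value of 0.18 without control 1. Cpt2, which turns the esters back into acyl-CoA inside, stood at 163 ± 22.4 and 146 ± 11.7, with an interval from -0.58 to 0.27. Slc25a20, the carrier that passes the esters through the inner membrane, stood at 476 ± 84.7 and 487 ± 117, with an interval from -0.48 to 0.52. In all 3 genes the groups overlapped, and the intervals leave room for differences of either sign.

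Decr1, at chr5:30492195-30520190 on rn4, encodes the mitochondrial reductase needed to degrade polyunsaturated fatty acids. Its level was 531, 484 and 392 normalized counts in controls 1, 2 and 3, and 985, 889 and 761 in STZ rats 1, 2 and 3. Every STZ library lay well above every control library, and replicate 3 was the lowest within each group. The mean rose 1.87-fold, from 469 ± 70.8 to 878 ± 113, with a log2 fold change of 0.91 (SE 0.19, 95% interval from 0.48 to 1.33) and a limma adjusted p of 0.0388. The call was lost when a single library was left out in 5 of 6 cases, with an adjusted p of 0.143 without control 2, 0.0668 without control 3, 0.127 without STZ rat 1, 0.157 without STZ rat 2 and 0.0647 without STZ rat 3. It held without control 1 (0.0472) and was lost without the intensity trend (0.179), while the log2 fold change stayed between 0.78 and 1.01 over all 17 alternatives.

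The acyl-CoA dehydrogenases carry out the opening step of each β-oxidation cycle and are named by the chain length they prefer. Acadl, the long-chain enzyme, had 257, 229 and 188 normalized counts in controls 1, 2 and 3, and 419.7, 320.5 and 315 in STZ rats 1, 2 and 3. All STZ libraries were above all controls, with a log2 fold change of 0.64 (SE 0.20) and a limma adjusted p of 0.145. Only quantile normalization brought its adjusted p under 0.05 (0.0482), in a range from 0.0482 to 0.402 over 17 alternatives. Acadvl, the very long-chain enzyme, had 226, 212 and 163 in the controls and 315, 237 and 239 in the STZ rats. Its groups also did not overlap, but the nearest libraries, control 1 and STZ rat 2, were close, and the log2 fold change was 0.40 (SE 0.21) with a limma adjusted p of 0.417. It was 0.26 both without control 3 and without STZ rat 1. A feature lying between Acadvl and a microRNA gene held up to 21 reads in a library, which cannot be assigned to either.

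Acads, the short-chain enzyme, had 68.7, 84.7 and 25.6 normalized counts in controls 1, 2 and 3, and 149, 78.1 and 112 in STZ rats 1, 2 and 3. The groups overlapped, since STZ rat 2 was below control 2, and control 3 was far below the other controls. The log2 fold change was 1.03 (SE 0.40) with a limma adjusted p of 0.253, and without control 3 it was 0.51. Acadm, the medium-chain enzyme, stood at 2302 ± 139 in controls and 3001 ± 556 in STZ rats, with an interval from -0.08 to 0.81. Only STZ rat 3, at 2398, fell within the control range of 2198 to 2460.

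The later steps of the cycle gave no call. Acaa2, the thiolase that releases acetyl-CoA, had 899, 774 and 846 normalized counts in controls 1, 2 and 3, and 1025, 1574 and 1183 in STZ rats 1, 2 and 3. The STZ libraries were all higher, STZ rat 2 most of all, with a log2 fold change of 0.56 (SE 0.20) and a limma adjusted p of 0.204. Hadha and Hadhb, which encode the subunits of the trifunctional protein, overlapped between the groups. Hadha stood at 430.4 ± 169 and 363 ± 69.6 (interval from -0.80 to 0.43). Hadhb stood at 2185 ± 380 and 1927 ± 229 (interval from -0.62 to 0.28). Hadh, the dehydrogenase for short chains, stood at 762 ± 162 and 753 ± 65.8, with a log2 fold change of 0.00 and an interval from -0.45 to 0.45. Ehhadh, the bifunctional enzyme of peroxisomes, was at the floor, with 2, 2 and 1 reads in the controls and 1, 2 and 2 in the STZ rats, and was not tested.

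Among the tested genes of β-oxidation, 7 of 9 fold changes were above 0, with a median of 0.40. The collecting duct principal cell markers had a summed mean of 45130 ± 11192 in controls and 62461 ± 19527 in STZ rats, with 0 of 8 called by limma and 5 at an unadjusted p under 0.05, 4 of them with a positive fold change (Aqp2, Aqp3, Scnn1b and Scnn1g). Hsd11b2, the remaining marker of these 5, lay below all controls in every STZ library, with a log2 fold change of -0.83. The part of the principal cell markers in the enzyme levels was not tested. In tissue of mixed cell types, more or fewer cells of a type and more or less RNA per cell cannot be told apart.

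Electron transfer flavoprotein accepts the electrons of the dehydrogenases and passes them to its oxidoreductase. Etfb, its β subunit, had 598, 477 and 335 normalized counts in controls 1, 2 and 3, and 824, 593 and 629 in STZ rats 1, 2 and 3. Control 1 was above STZ rat 2, so the groups overlapped. The log2 fold change was 0.56 (SE 0.24) with a limma adjusted p of 0.291, and 0.34 without control 3. Etfa, the α subunit of the same protein, stood at 622 ± 118 in controls and 682 ± 177 in STZ rats, with an interval from -0.40 to 0.63. Etfdh, the oxidoreductase, stood at 339 ± 60.8 and 349 ± 56.6, with an interval from -0.41 to 0.50. Whether Etfb differed from its partner subunit was not tested.

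Ketone bodies are interconverted by Bdh1 and used through Oxct1 and Acat1. Bdh1 had 39.0, 33.6 and 21.1 normalized counts in controls 1, 2 and 3, and 16.7, 15.8 and 18.1 in STZ rats 1, 2 and 3. It was the single member with all STZ libraries below all controls, although control 3 was close to STZ rat 3. The log2 fold change was -0.81 (SE 0.32) with a limma adjusted p of 0.257. Oxct1, which activates acetoacetate with CoA, stood at 677 ± 70.7 in controls and 699 ± 181 in STZ rats, with an interval from -0.47 to 0.50. Acat1, the thiolase that splits acetoacetyl-CoA, stood at 1059 ± 157 and 1439.6 ± 246, with a log2 fold change of 0.44 and an interval from -0.01 to 0.88. Acat1 overlapped between the groups and, like Oxct1, was not called.

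Pyruvate dehydrogenase kinases switch off the enzyme that feeds glucose carbon into the citric acid cycle. Pdk1 had 9.23, 9.92 and 18.9 normalized counts in controls 1, 2 and 3, and 34.4, 20.8 and 38.1 in STZ rats 1, 2 and 3. The groups did not overlap, with control 3 and STZ rat 2 nearest to each other. The log2 fold change of 1.25 (SE 0.39) was the highest among the 28 tested members, and the limma adjusted p was 0.139. Pdk4, the isoform best known as a PPAR target and as a gene of fasting and diabetes in other tissues, had 11.3, 16.8 and 7.79 in the controls and 26.9, 13.8 and 15.1 in the STZ rats. STZ rats 2 and 3 lay within the control range, and the interval of its log2 fold change ran from -0.33 to 1.53, around an estimate of 0.60 that was 0.35 without control 3 and 0.31 without STZ rat 1. Pdk2 stood at 287 ± 56.5 in controls and 265 ± 54.9 in STZ rats, with an interval from -0.60 to 0.38. Pdk3 stood at 42.8 ± 8.25 and 52.2 ± 4.65, with an interval from -0.24 to 0.82. No kinase was called by limma, and Pdk1 was the 1 of 4 with an unadjusted p under 0.05.

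The regulators were low or variable. Ppara, the receptor that drives fatty acid oxidation in liver, had 2.05, 13.7 and 16.7 normalized counts in controls 1, 2 and 3, and 3.71, 13.8 and 15.1 in STZ rats 1, 2 and 3. Replicate 1 was the lowest of both groups, the ranges nearly coincided, and at this depth the interval ran from -1.47 to 1.80. Ppard, the receptor expressed in most tissues, was at the floor with 0 or 1 read in each library and was not tested. Ppargc1a, the coactivator that raises mitochondrial gene expression, had 123, 95.3 and 65.7 in the controls and 71.5, 38.6 and 64.2 in the STZ rats. STZ rat 1 exceeded control 3, so the groups overlapped. The value on the log2 scale was -0.70 (SE 0.30) with a limma adjusted p of 0.306, and -0.43 without STZ rat 2.

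Bdh1 and Ppargc1a, the members with the most negative fold changes, stood beside lower markers of other tubule cells. Of the 6 intercalated cell markers, all had a feature, 5 were tested and limma called 4 as lower, with Atp6v1g3, a proton pump subunit, the most abundant. They summed to 2607, 1150 and 1356 normalized counts in controls 1, 2 and 3 and to 531, 459 and 463 in STZ rats 1, 2 and 3. Thick ascending limb markers, of which 5 of 7 had a feature and Slc12a1 was the most abundant, summed to 1110, 1377 and 1898 in the controls and 604, 374 and 216 in the STZ rats. Limma called 2 of the 3 tested, Umod and Egf, as lower. Proximal tubule markers, of which 8 of 10 had a feature and Kap was the most abundant, summed to 268, 363 and 518 in the controls and 166, 114 and 168 in the STZ rats, with 1 of 7 tested, Kap, called as lower. No marker found on these 3 lists was at 0 in all libraries. The 3 sums were lower in every STZ library than in every control library. Without its most abundant gene this held for the intercalated cell and thick limb sums, but the proximal tubule sum overlapped between the groups without Kap, at 93.3, 168 and 235 in the controls and 101, 93.0 and 112 in the STZ rats. Of the 7 proximal tubule markers tested, 5 overlapped, and Lrp2 had a positive log2 fold change of 0.29. The part of these markers in the levels of Bdh1 and Ppargc1a was not tested.

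The lipid handling members included targets of the PPARs. Angptl4, a secreted inhibitor of lipoprotein lipase and a common PPAR target, had 293, 281 and 267 normalized counts in controls 1, 2 and 3, and 335, 440.1 and 310.2 in STZ rats 1, 2 and 3. The STZ libraries were all higher, but STZ rat 3 was near the controls, and the log2 fold change was 0.35 (SE 0.19) with a limma adjusted p of 0.443, and 0.20 without STZ rat 2. Ucp2, a carrier of the inner mitochondrial membrane, had 225, 308 and 95.7 in the controls and 643, 257 and 360.4 in the STZ rats. STZ rat 2 was below control 2, and the wide spread within both groups gave a log2 fold change of 1.05 (SE 0.42) with a limma adjusted p of 0.256. That fold change was 0.57 without control 3 and 0.69 without STZ rat 1. Ucp3, its muscle relative, was at the floor, with 2 reads in STZ rat 3 and 0 in the other libraries, and was not tested.

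Fabp4, a fatty acid binding protein of adipocytes and capillary endothelium, stood at 659 ± 346 in controls and 509 ± 83.3 in STZ rats, with an interval from -0.94 to 0.43. Control 1, at 1049, was above the other libraries, which lay between 386 and 605. Slc27a1, a fatty acid transport protein with acyl-CoA synthetase activity, stood at 24.3 ± 1.70 and 31.1 ± 7.47, with an interval from -0.32 to 0.95 around 0.32, which was 0.52 without STZ rat 2 and 0.18 without STZ rat 3. Plin2, a coat protein of lipid droplets, is listed under its older symbol Adfp, which stood at 1104 ± 104 and 1186 ± 133 and had a log2 fold change of 0.10 and an interval from -0.30 to 0.50. Fabp3, the heart type binding protein, is merged with the overlapping gene Zcchc17, and that feature had 1528 ± 249 and 1529 ± 303, which cannot be assigned to Fabp3 alone. Cd36, a fatty acid translocase, was not analysed here.

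**Figure D2:**
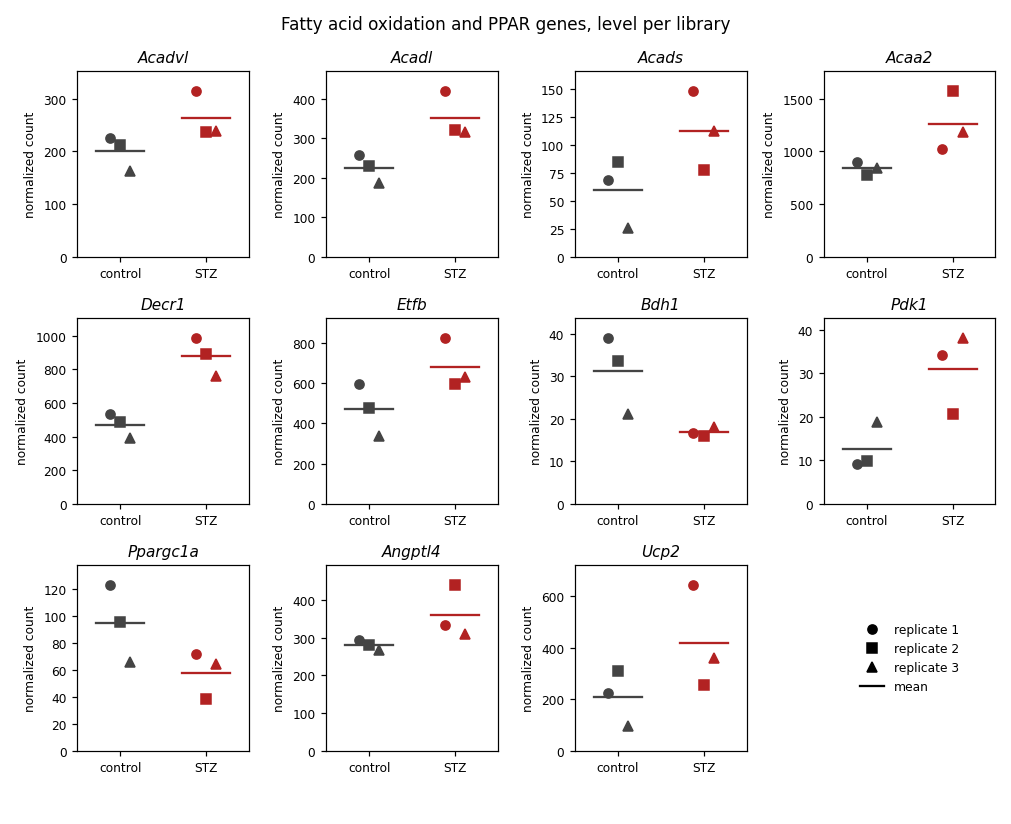
Normalized counts (vertical axes, each from 0) in the 3 control and 3 STZ libraries for the 11 members with an unadjusted limma p under 0.05 or without overlap between the groups; symbols mark the replicate and horizontal lines the group mean. Decr1, between 392 and 531 in controls and between 761 and 985 in STZ rats, was the called member.

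Levels also followed the library within each group. Control 3 was the lowest control in 14 of 18 tested enzymes, and STZ rat 3 was the lowest STZ library in 12 of 18. Replicate 1 was the highest of its group in 12 of 18 enzymes among both controls and STZ rats. The low place of control 3 and STZ rat 3 was not particular to these enzymes. Of the 16 tested citric acid cycle genes, control 3 was the lowest control in 16. STZ rat 3 was the lowest STZ library in 15. Control 1 was the highest control in 10 of these 16 genes, and STZ rats 1 and 2 were each the highest STZ library in 8. In the 10 tested kinases, regulators and lipid handling genes, control 3 was the lowest control in 6. STZ rat 2 rather than STZ rat 3 was the lowest STZ library in 7. Among these 10, control 2 was the highest control in 4, and controls 1 and 3 in 3 each. STZ rat 1 was the highest STZ library in 5. Control 3 and STZ rat 3 had the fewest reads of their groups, and the part of depth in this order was not tested.

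Other genes of these pathways were counted on a list of 151, of which 115 had a feature and 101 were tested. Limma called 5 as higher in STZ rats and 1 as lower, with 20 at an unadjusted p under 0.05, against 2.1% of all features called, 1.17% as higher and 0.927% as lower, and 14.7% at an unadjusted p under 0.05. The median log2 fold change was 0.01, with 52 positive and 49 negative. By role, the calls fell on 3 of 19 tested genes of lipid binding, droplets and other PPAR targets (Vnn1, Lpin2 and Lpl), on 1 of 19 PPAR partners and coregulators (Pparg), on 1 of 13 genes of acyl-CoA activation and hydrolysis (Acot7) and on 1 of 7 of ketone synthesis and use (Slc16a7). The 19 tested genes of lipid binding, droplets and other PPAR targets had 7 positive and 12 negative fold changes, with a median of -0.16. Lpl was also placed on the list of other mitochondrial oxidation and carnitine genes, although it is a lipase of circulating lipoproteins. It was the 1 call among the 21 tested there, so limma called no gene of mitochondrial oxidation or carnitine on that list. Limma called 0 of 17 peroxisomal genes, with 3 at an unadjusted p under 0.05, and 0 of 7 genes of the pyruvate dehydrogenase complex, with 2 at an unadjusted p under 0.05.

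Pparg, the PPAR receptor of adipocytes that is also known from collecting duct and urothelium, had 42.0, 58.7 and 28.9 normalized counts in controls 1, 2 and 3, and 229, 128 and 152 in STZ rats 1, 2 and 3. Each STZ library was well above each control. Its mean rose 3.92-fold, with a log2 fold change of 1.96 (SE 0.30) and a limma adjusted p of 0.00867. The call held with any single library left out, with adjusted p between 0.0136 and 0.0341, and was lost without the intensity trend (0.11). Of the other PPARs, Ppara overlapped between the groups and Ppard was at the floor, and the difference between the receptors was not tested.

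Lpl, the lipase that frees fatty acids from circulating lipoproteins, had 166, 261 and 171 normalized counts in controls 1, 2 and 3, and 880.3, 567 and 419 in STZ rats 1, 2 and 3. It rose in every STZ library over every control, with a log2 fold change of 1.60 (SE 0.28) and a limma adjusted p of 0.017, which was 0.0557 without control 1 and 0.0615 without STZ rat 2. Lpin2, a phosphatidate phosphatase, had 351, 632 and 319 in the controls and 2235, 1016 and 943 in the STZ rats. STZ rat 1 was far above the other STZ libraries. Its log2 fold change was 1.64 (SE 0.34) with a limma adjusted p of 0.0383, which was 0.114 without control 1, 0.0663 without control 3, 0.0696 without STZ rat 1 and 0.0743 without STZ rat 2. Vnn1, a pantetheinase and PPAR target, had 189, 191 and 146 in the controls and 677, 649 and 308 in the STZ rats. STZ rat 3 was the lowest of its group and still above the controls, with a log2 fold change of 1.56 (SE 0.29) and a limma adjusted p of 0.0212, which was 0.0771 without control 2, 0.0567 without STZ rat 1 and 0.0961 without STZ rat 2.

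Acot7, which hydrolyses long-chain acyl-CoA, had 63.6, 64.1 and 41.2 normalized counts in controls 1, 2 and 3, and 119.8, 152 and 137 in STZ rats 1, 2 and 3. The groups were apart, with control 3 below the other controls, and had a log2 fold change of 1.28 (SE 0.24) and a limma adjusted p of 0.0212, which was 0.0556 without control 2, 0.105 without STZ rat 2 and 0.0698 without STZ rat 3. Slc16a7, a carrier of pyruvate, lactate and ketone bodies, had 254, 277 and 264 in the controls and 162, 121 and 80.3 in the STZ rats. It fell in each STZ library below each control, with a log2 fold change of -1.18 (SE 0.25) and a limma adjusted p of 0.0383, which was 0.0877 without control 1, 0.162 without control 2, 0.0521 without control 3, 0.121 without STZ rat 2 and 0.0922 without STZ rat 3. Without the intensity trend, the calls of Lpl, Lpin2, Vnn1, Acot7 and Slc16a7 were lost, with limma adjusted p from 0.141 to 0.201.

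**Figure D3:**
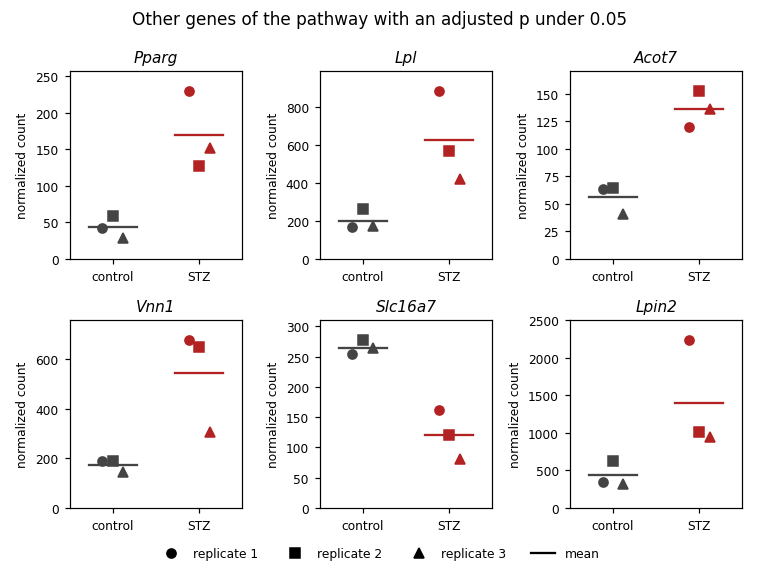
Normalized counts (vertical axes, each from 0) in the 3 control and 3 STZ libraries for the 6 other pathway genes with a limma adjusted p under 0.05, with symbols for the replicate and horizontal lines for the group mean. In 5 genes the STZ libraries lie above all controls, and in Slc16a7 they lie below.

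Markers of further cell types in which Pparg, Lpl or Fabp4 are known to be expressed were read beside these values. Adipocyte markers, of which 6 of 8 had a feature, summed to 12.3, 17.5 and 21.1 normalized counts in controls 1, 2 and 3 and to 11.1, 15.8 and 20.1 in STZ rats 1, 2 and 3. Lep was at 0 in all libraries, Retn, Cfd and Adrb3 were at the floor, Adipoq was the most abundant, and limma called 0 of the 2 tested, with 0 at an unadjusted p under 0.05. Macrophage markers, of which 6 of 9 had a feature with Lyz2 the most abundant, summed to 630.5, 2055 and 1523 in the controls and 1237, 1146 and 1949 in the STZ rats, and limma called 0 of 6, with 0 at an unadjusted p under 0.05. Neither of these sums separated the groups, although without Adipoq the adipocyte sum was lower in every STZ library (11.3, 11.4 and 12.2 against 3.71, 5.93 and 8.03). No macrophage marker found was at 0 in all libraries.

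Urothelium markers, of which 5 of 7 had a feature and Upk3a was the most abundant, summed to 112, 85.4 and 132 normalized counts in controls 1, 2 and 3 and to 440.1, 517 and 475 in STZ rats 1, 2 and 3. Limma called 2 of the 5, Upk3a and Upk1b, as higher, while 2 overlapped between the groups. Endothelium markers, of which 8 of 10 had a feature and Emcn was the most abundant, summed to 10013, 8078 and 8437 in the controls and 5328, 5326 and 4791 in the STZ rats, and limma called Emcn and Plvap as lower and Vwf as higher. Smooth muscle and pericyte markers, of which 4 of 7 had a feature and Tagln was the most abundant and the 1 called (higher), summed to 485, 538 and 534 in the controls and 932, 857 and 835 in the STZ rats. Fibroblast markers, all 6 found and Dcn the most abundant, summed to 9041, 7406 and 8842 in the controls and 10753, 7962 and 4711 in the STZ rats, with Pdgfra called as higher, 4 of the 5 tested overlapping between the groups, 3 fold changes positive and 2 negative. No marker found on these 4 lists was at 0 in all libraries. The urothelium and smooth muscle sums were higher, and the endothelium sum lower, in every STZ library than in every control. Without its most abundant gene the urothelium sum still separated the groups, but the other 2 overlapped. Smooth muscle without Tagln summed to 304, 286 and 302 in the controls and 386, 273 and 292 in the STZ rats. Of all 4 fold changes, Tagln included, 2 were positive. Endothelium without Emcn summed to 3493, 2895 and 3610 in the controls and 3082, 3323 and 2755 in the STZ rats. With Emcn included, 4 of 8 fold changes were positive. Of the 8, Emcn, Plvap, Cdh5 and Tek lay below all controls in every STZ library, Vwf and Tie1 lay above them, and 2 overlapped. The fibroblast sum overlapped, but without Dcn it was higher in every STZ library, at 737, 678 and 1018 in the controls and 1552, 1333 and 1404 in the STZ rats. Of that remainder, Pdgfra made up 505, 419 and 681 in the controls and 1209.9, 1047 and 963 in the STZ rats. The part of these markers in the levels of Pparg, Lpl, Vnn1, Lpin2, Acot7 and Slc16a7 was not tested.

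Because PPARs pair with RXR on a direct repeat of the letters AGGTCA with 1 base between the copies, member promoters were searched for AGGTCANAGGTCA on both strands, in 300 bases from 250 before to 50 after the gene start, in the RefSeq table for GRCr8. The table held 30 promoters of 29 members, and all 33469 promoters served for comparison. None of the 30 held the exact repeat, against 0.0538% of all promoters, and 1 of them (3.33%) held it with at most 1 mismatch, against 0.439%. At that share the exact repeat is too rare for its absence from 30 promoters to mean anything. The 3.33% rests on 1 promoter, and the difference between these shares was not tested. AGGTCA alone, which also lies within the repeat, was found in 4 of the 30 (13.3%) and in 16.2% of all promoters. The promoter with the mismatched repeat was that of Acadvl, at chr10:55236656-55236955 on the minus strand of GRCr8, and it is printed 5′ to 3′ to show where the letters lie, with the repeat in capitals.
Acadvl promoter: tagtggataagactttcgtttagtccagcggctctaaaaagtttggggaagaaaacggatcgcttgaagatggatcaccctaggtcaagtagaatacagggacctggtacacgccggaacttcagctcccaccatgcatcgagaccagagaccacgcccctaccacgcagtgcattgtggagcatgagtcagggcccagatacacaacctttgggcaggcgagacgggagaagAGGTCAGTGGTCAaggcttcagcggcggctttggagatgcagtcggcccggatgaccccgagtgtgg
The repeat covered bases 234 to 246 of the window and differed from the letters searched by A8T, the base of AGGTCANAGGTCA first, counted from 1 at its 5′ end. A match of letters describes the sequence and not binding.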

How the data were processed

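Libraries from the IM tip of 3 control and 3 STZ rats were analysed. Per the submitters' processing notes and the study's methods, the authors aligned reads to rn4 with STAR 2.3.1t and normalized the reads of each gene with DESeq 1.16.0. The deposited signal is the resulting normalized count. Within each library the values divided by the smallest step were whole within 0.01, and these quotients were taken as reads. Coordinates of genes are those of rn4 in the table.

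Features averaging 5 or more over the 6 libraries entered the comparison. It was run in R 4.3.3 with limma 3.58.1, after adding a pseudocount of 1 and taking log2, using the intensity trend and Benjamini-Hochberg adjustment at 0.05. The scripts were tested on simulated data. Python 3.11.15 with pandas 2.3.3, numpy 2.4.6 and matplotlib 3.10.9 served for summaries and plots.

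All members were named, with library values where the unadjusted p was under 0.05 or the groups did not overlap. Library values of Pdk4 and Ppara, and the range in Acadm and Fabp4, were added after values were seen. Other pathway genes were named at an adjusted p under 0.05, and markers by abundance or absence. Cyp4a2, Cyp4a8, Klf10 and Dgat2, further named markers, and the low and nearest libraries were chosen after values were seen. The members and lists were chosen with earlier results of these data known. Alternatives were other pseudocounts, filters, scalings and moderations, a replicate block, and each library left out.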

Additional observations from a re-analysis of the deposited data

How the results depend on the processing

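Of 605 log2 fold changes of 36 named genes under 17 alternatives, 545 kept their direction and side of the threshold, 29 lost the call, 1 gained it and 30 reversed, and 26 genes never reversed. The 283 features called became 522 with quantile normalization, 31 without the intensity trend and 561 with the replicate block, and ranged from 86 to 341 with 1 library left out. The 1 member called, an enzyme, became 2 with quantile normalization and 0 without the trend, and ranged from 0 to 1 with 1 library left out. The 6 other pathway genes called became 0 without the trend and 10 with the replicate block, and ranged from 1 to 6 with 1 library left out. The median log2 fold change of 0.30 over the kinases, regulators and lipid handling genes became 0.0894 when the features with the highest means alone were tested, which left low members out. Beyond fewer samples where a library was left out, the cause was not tested. With equal library totals the log2 fold change was -0.0119 for Slc25a20, -0.0278 for Hadh and -0.0147 for Oxct1, and with quantile normalization it was -0.017 for Hadh and -0.0175 for Oxct1. With 1 library left out it ranged from -0.13 to 0.23 for Slc25a20, -0.50 to 0.0959 for Hadha, -0.18 to 0.13 for Hadh, -0.0503 to 0.34 for Etfa, -0.0868 to 0.18 for Etfdh, -0.12 to 0.25 for Oxct1, -0.27 to 0.0455 for Pdk2, -0.63 to 0.74 for Ppara, -0.58 to 0.14 for Fabp4 and -0.16 to 0.12 for Zcchc17+Fabp3. Without a change of sign it ranged from -0.27 to -0.0719 for Cpt2, -0.32 to -0.0711 for Hadhb, 0.22 to 0.44 for Pdk3 and 0.0116 to 0.17 for Adfp. The replicate block rests on numbers alone: deviations of same-numbered libraries correlated over 9315 features at r = 0.395, -0.0612 and 0.323 for numbers 1, 2 and 3, and 4 of 6 libraries correlated best with their own number. Not every pair exceeded 0.1, so the numbers were not used as a pairing, and whether they mark one is not settled by these values. The planned edgeR and DESeq2 fits were not run. Low genes gave no value where a stricter filter left them out. Members at or under 3 reads could not be compared at this depth, and lane and group cannot be told apart.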
